A study of Homo sapiens with 6 samples.

Results

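The 10 genes described here belong to the Hippo pathway or are known targets of its transcriptional output, and they were taken by gene symbol from the 25662 rows of the deposited expression table. They are CCN1, CCN2, AXL, ANKRD1, AMOTL2, AJUBA, LATS2, YAP1, WWTR1 and TEAD1, and all 10 were in the table. RNA sequencing was done on HCT116 cells, an established line from a human colorectal carcinoma, grown in McCoy's 5a medium with serum. The control group was 3 cultures transfected with a control siRNA, and the RRN3 siRNA group was 3 cultures transfected with an siRNA against RRN3, which RNA polymerase I needs to start transcription of the ribosomal RNA genes. The design asks which transcripts change when RRN3 is silenced. No siRNA sequence, dose or time after transfection is given in the sources used here, and with 1 RRN3 siRNA group the effects of RRN3 loss and any other effects of that treatment cannot be told apart.

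In the Hippo pathway a chain of kinases ends in LATS1 and LATS2, which phosphorylate the coactivators YAP (encoded by YAP1) and TAZ (encoded by WWTR1) and keep them out of the nucleus. Unphosphorylated YAP and TAZ bind the TEAD proteins, which contact DNA, and switch on targets such as CCN1, CCN2, AXL and ANKRD1. Some targets, among them LATS2 and the YAP-binding scaffold gene AMOTL2, act back on the pathway, and in intestinal epithelium YAP is known for its part in regeneration and in tumour growth. YAP and TAZ are controlled mainly as proteins, by phosphorylation and location, which RNA sequencing does not measure.

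TEAD proteins recognise the letters GGAATG, and the RefSeq promoter table (GRCh38.p14, 250 bases before to 50 after each annotated start) was searched for them on both strands, the reverse strand reading CATTCC. Windows were found for 8 members, with 12 windows in all, and CCN1 and TEAD1 were not matched. The motif was in 7 of the 12 windows, 1 for each of CCN2, AXL, ANKRD1, AMOTL2, AJUBA, LATS2 and YAP1, against 14% of all 35116 windows in the table. The CCN2 window held 3 copies, at positions -169, -104 and -95 from the start (first letter of the motif, -1 being the base before the start), and 0.128% of all windows hold 3 or more. The ANKRD1 window held 2 copies, at -220 and -128, and 1.37% of all windows hold 2 or more. The AXL, AMOTL2 and AJUBA matches were each in the window of the second of their 2 annotated starts, at -212, -69 and -59. The YAP1 match was at -162, and the LATS2 match began at position 10 after the start. Most members were named as TEAD targets in earlier work, so these counts describe the chosen genes, and a match of letters is not a measured binding site. The AP-1 motif TGANTCA was in 1 member's window, that of ANKRD1 at -195, and in 7.71% of all windows. The CArG box, the motif of serum response factor, was in 0 of the 12 windows and in 1.29% of all. The upstream stretches below show the spacing of the copies in CCN2 and ANKRD1 and the surroundings of the single copies, written 5′ to 3′ on the gene's strand with the TEAD motif in capitals. They lie at chr6:131951373-131951552 (minus strand) for CCN2, chr10:90921138-90921317 (minus) for ANKRD1, chr19:41226516-41226575 (plus) for AXL, chr3:134374484-134374543 (minus) for AMOTL2, chr14:22976869-22976928 (minus) for AJUBA and chr11:102110258-102110317 (plus) for YAP1.
CCN2: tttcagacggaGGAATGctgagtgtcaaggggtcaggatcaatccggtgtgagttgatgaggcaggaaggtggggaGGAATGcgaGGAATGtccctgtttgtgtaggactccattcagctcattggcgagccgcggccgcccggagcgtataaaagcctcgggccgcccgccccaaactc
ANKRD1: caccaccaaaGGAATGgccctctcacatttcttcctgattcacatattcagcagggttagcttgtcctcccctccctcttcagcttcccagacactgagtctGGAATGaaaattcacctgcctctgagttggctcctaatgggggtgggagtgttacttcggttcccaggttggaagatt
AXL: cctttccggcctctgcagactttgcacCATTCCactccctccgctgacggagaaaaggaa
AMOTL2: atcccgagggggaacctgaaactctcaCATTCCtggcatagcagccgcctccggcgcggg
AJUBA: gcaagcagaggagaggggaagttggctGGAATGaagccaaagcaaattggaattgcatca
YAP1: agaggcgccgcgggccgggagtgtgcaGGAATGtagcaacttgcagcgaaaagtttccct

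Values are TPM, transcript abundances scaled for length and expressed relative to the whole library, so levels of different genes can be set side by side. Changes are differences of log2(TPM + 1) between the groups, which understate the change of low genes, and a gene rose or fell only if its limma p-value, adjusted over all genes tested, was below 0.05. The table keeps no sequencing depth, and summed TPM was 991305 to 992042 per library. RRN3 itself fell from 16.6 ± 3.79 to 1.61 ± 0.953 TPM (SD, n = 3 per group), with no overlap between the groups. In both groups replicate 1 was richer in GC-poor transcripts than replicates 2 and 3, and its deviation from the group mean correlated with transcript GC content across 12142 genes at -0.45 in control siRNA and -0.50 in RRN3 siRNA (genes are not independent, and these values describe the libraries). The colon epithelial genes EPCAM and KRT8 were at 124 ± 20.8 and 2798 ± 321 TPM in control libraries, while KRT20 and VIL1 were below 1 TPM in all 6. Of 7 fibroblast markers only COL1A1 was above 1 TPM in any library, and the summed levels of 4 immune and 4 endothelial markers were at most 0.97 and 0.683 TPM in any library. The libraries are of bulk RNA, in which a change in the number of cells expressing a gene and a change in the RNA of each cell cannot be told apart.

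Of the 10 members, 5 rose after RRN3 siRNA, 0 fell, 4 were tested and did not pass, and ANKRD1 was below the minimum mean of 1 TPM for testing. The 5 that rose were the secreted matrix protein genes CCN1 and CCN2, the receptor tyrosine kinase gene AXL, and the genes of the pathway adaptors AMOTL2 and AJUBA. Their TPM rose by factors of 2.02 for AMOTL2 to 5.8 for AXL. Of all 12157 genes tested, 11.2% rose and 19% fell. These shares come from 1367 rising and 2312 falling genes with TPM as deposited, which became 2017 and 2115 when median-of-ratios scaling was used. The median log2 change was 0.99 over the 9 tested members and -0.05 over all tested genes. In 6 of the 9 tested members, LATS2 included, every RRN3 siRNA library was above every control library, as it was in 17.9% of all tested genes. The same held for ANKRD1, which was not tested. The summed level of the 10 members was 106 to 125 TPM in control and 230 to 308 TPM in RRN3 siRNA libraries.

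**Figure D1:**
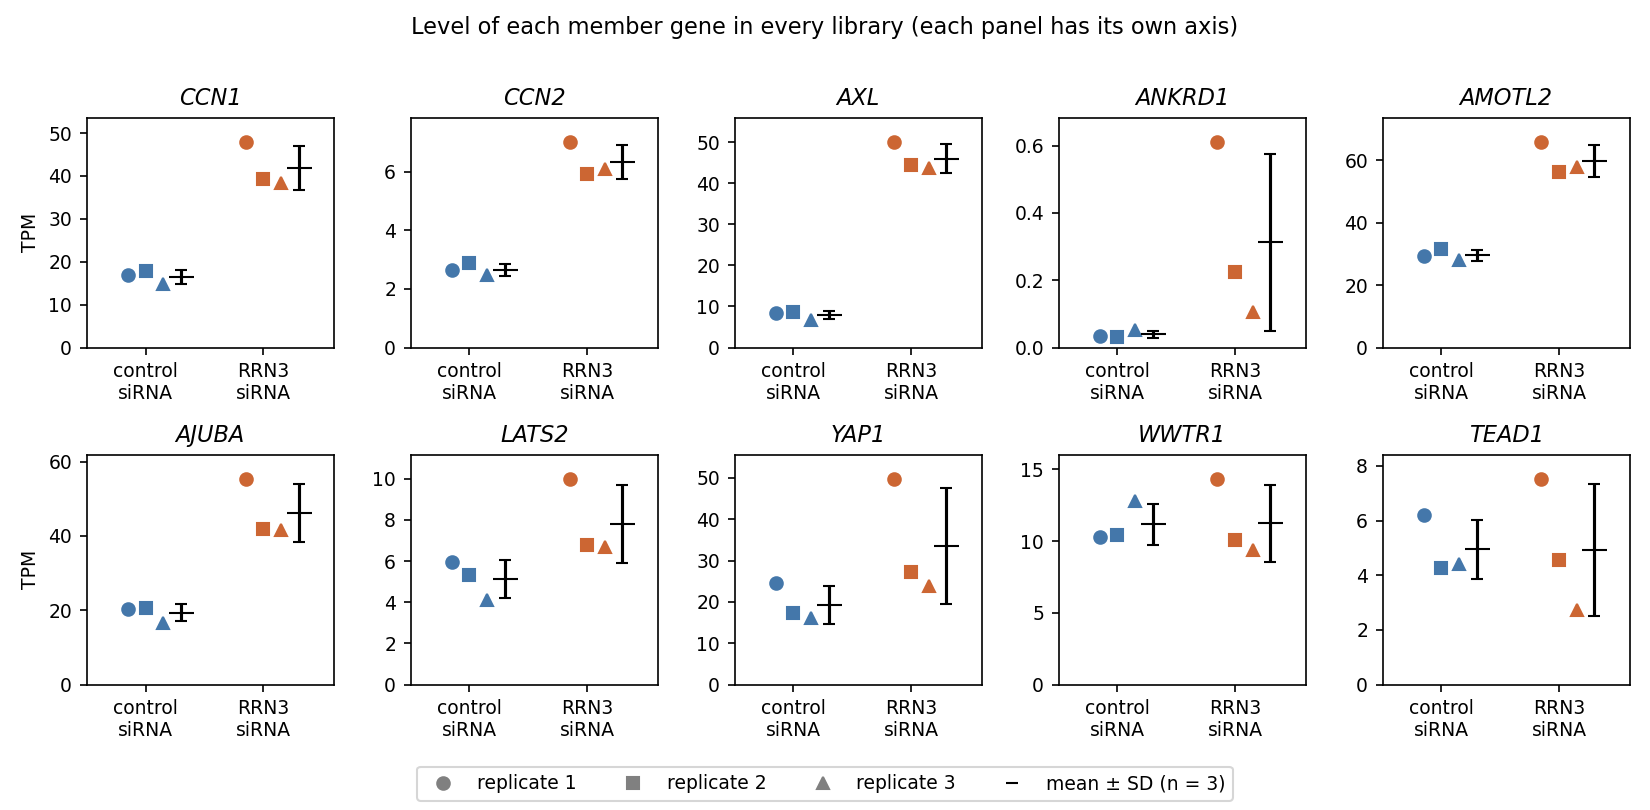
TPM of each of the 10 genes in the 3 control siRNA (blue) and 3 RRN3 siRNA (orange) libraries, with marker shape giving the replicate number and the black bar the mean ± SD; each panel has its own axis starting at 0. The groups are apart for CCN1, CCN2, AXL, AMOTL2 and AJUBA, by a narrow margin for LATS2, and at values near 0 for ANKRD1. For YAP1, WWTR1 and TEAD1 they overlap. In all 10 panels the RRN3 siRNA replicate 1 library is the highest of its group.

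Of the tested members AXL had the largest change in log2(TPM + 1). AXL encodes a receptor tyrosine kinase for the ligand GAS6 and lies on the plus strand of chromosome 19 at 41219203 to 41261766 (GRCh38, GENCODE 29). AXL was at 8.38, 8.6 and 6.82 TPM in the control libraries and after RRN3 siRNA at 49.98, 44.5 and 43.7 TPM. The lowest RRN3 siRNA library was therefore 5.08 times the highest control, and the spread within groups was small beside the gap. The log2 change was 2.40 (SE 0.12, limma adjusted p = 2.46e-05), and only 16 of 12157 tested genes had a larger rise.

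CCN1, a secreted matricellular protein that binds integrins, lies on chromosome 1 (plus strand, 85580761 to 85583962). CCN1 was at 16.9, 17.9 and 14.7 TPM in control libraries and 47.8, 39.4 and 38.3 TPM after RRN3 siRNA. The groups were apart, and the log2 change was 1.29 (SE 0.12, limma adjusted p = 0.000293). CCN2, its close relative, also called connective tissue growth factor, lies on chromosome 6 (minus strand, 131948176 to 131951373). CCN2 was at 2.65, 2.88 and 2.46 TPM in control and 7.01, 5.92 and 6.09 TPM in RRN3 siRNA libraries. It too showed no overlap, at a lower level throughout, with a log2 change of 1.002 (SE 0.14, limma adjusted p = 0.00161). The ratio of CCN1 to CCN2 TPM was 6.39, 6.22 and 5.97 in control and 6.82, 6.65 and 6.28 in RRN3 siRNA libraries, so the proportion of both genes overlapped between the groups while their levels did not. ANKRD1, a nuclear cofactor best known from heart muscle (chromosome 10, minus strand, 90912096 to 90921276), was close to absent. It was at 0.0347, 0.0321 and 0.0513 TPM in control libraries and at 0.609, 0.223 and 0.106 TPM after RRN3 siRNA. All 3 RRN3 siRNA values were above the controls, but every value was below 1 TPM and differed several-fold among the RRN3 siRNA libraries, so no change was called.

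AMOTL2 and AJUBA, both regulators at cell junctions, rose by similar amounts. AMOTL2, an angiomotin family scaffold that binds YAP and holds it at junctions, lies on chromosome 3 (minus strand, 134355874 to 134375479). It was at 29.4, 31.4 and 28.0 TPM in control and 65.7, 56.1 and 57.7 TPM in RRN3 siRNA libraries. AMOTL2 was the most abundant member in both groups, its groups did not overlap, and the log2 change was 0.99 (SE 0.10, limma adjusted p = 0.000315). AJUBA, a LIM domain protein that binds LATS kinases and restrains them, lies on chromosome 14 (minus strand, 22971174 to 22982642). It was at 20.5, 20.7 and 16.7 TPM in control and 55.2, 41.8 and 41.5 TPM in RRN3 siRNA libraries. The lowest RRN3 siRNA value was above the highest control by a factor of 2.002, with a log2 change of 1.21 (SE 0.14, limma adjusted p = 0.000724). A regulator that retains YAP and a regulator that restrains LATS therefore rose in the same libraries.

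LATS2 and YAP1, a kinase and its substrate, had higher means after RRN3 siRNA but did not pass the test. LATS2 (chromosome 13, minus strand, 20973032 to 21061547) was at 5.97, 5.31 and 4.13 TPM in control and 9.97, 6.78 and 6.67 TPM in RRN3 siRNA libraries. The groups did not overlap, but the margin between the highest control and the lowest RRN3 siRNA library was narrow, and the log2 change was 0.51 (SE 0.20, limma adjusted p = 0.0864). YAP1 (chromosome 11, plus strand, 102110461 to 102233423) was at 24.4, 17.3 and 16.1 TPM in control and 49.6, 27.2 and 23.7 TPM in RRN3 siRNA libraries. Control replicate 1 was above RRN3 siRNA replicate 3, so the groups overlapped, and the log2 change was 0.72 (SE 0.28, limma adjusted p = 0.0869). In both groups replicate 1 was the highest YAP1 library, 1.47 times the mean of the other 2 in control and 1.95 times in RRN3 siRNA. For LATS2 these factors were 1.26 and 1.48, whereas for AXL they were 1.09 and 1.13 and for AMOTL2 0.99 and 1.15. CCN1 and AJUBA, which passed the test, had factors of 1.04 and 1.23, and of 1.09 and 1.325. YAP1 transcripts have a mean GC content of 48.2%, below the median of 51.2% over tested genes, while LATS2 at 51.75% was slightly above it. The cause of these factors was not tested. With the GC trend of each library removed, the YAP1 log2 change was 0.66 with an adjusted p of 0.0549. Without both libraries numbered 1 the YAP1 log2 change was 0.58 with an adjusted p of 0.00302. The YAP1 call was also made after median-of-ratios scaling, quantile normalization and rescaling without mitochondrial and ribosomal protein genes (adjusted p = 0.00837, 0.0187 and 0.0446), and leaving out RRN3 siRNA replicate 3 gave it too (adjusted p = 0.0412). Those 3 scalings also gave a LATS2 call (adjusted p = 0.00949, 0.00524 and 0.0375). Of all 21 alternatives only 8 gave a YAP1 call and 6 a LATS2 call. Over these alternatives adjusted p ranged from 0.000184 to 1 for YAP1 and from 0.00356 to 1 for LATS2.

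WWTR1 and TEAD1 showed no change that could be called. WWTR1, which encodes TAZ, the paralog of YAP (chromosome 3, minus strand, 149517235 to 149736714), was at 10.3, 10.4 and 12.8 TPM in control and 14.3, 10.0 and 9.37 TPM in RRN3 siRNA libraries. The groups overlapped, and the log2 change of -0.01 had a 95% interval of -0.42 to 0.41 (limma adjusted p = 0.986). TEAD1, a DNA-binding partner of YAP and TAZ (chromosome 11, plus strand, 12674591 to 12944483), was at 6.2, 4.25 and 4.4 TPM in control and 7.51, 4.56 and 2.72 TPM in RRN3 siRNA libraries. Its RRN3 siRNA values ranged more widely than the distance between the groups, and the log2 change of -0.07 had a 95% interval of -0.76 to 0.62 (limma adjusted p = 0.888). These intervals, and not the p-values, limit the size of change that the data leave possible. TEAD1 in RRN3 siRNA replicate 1 was 2.06 times the mean of the other 2 libraries, and its transcripts have a GC content of 46.8%. For WWTR1, at a GC content of 56.9%, this factor was 1.47, against 0.89 in control replicate 1.

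**Figure D2:**
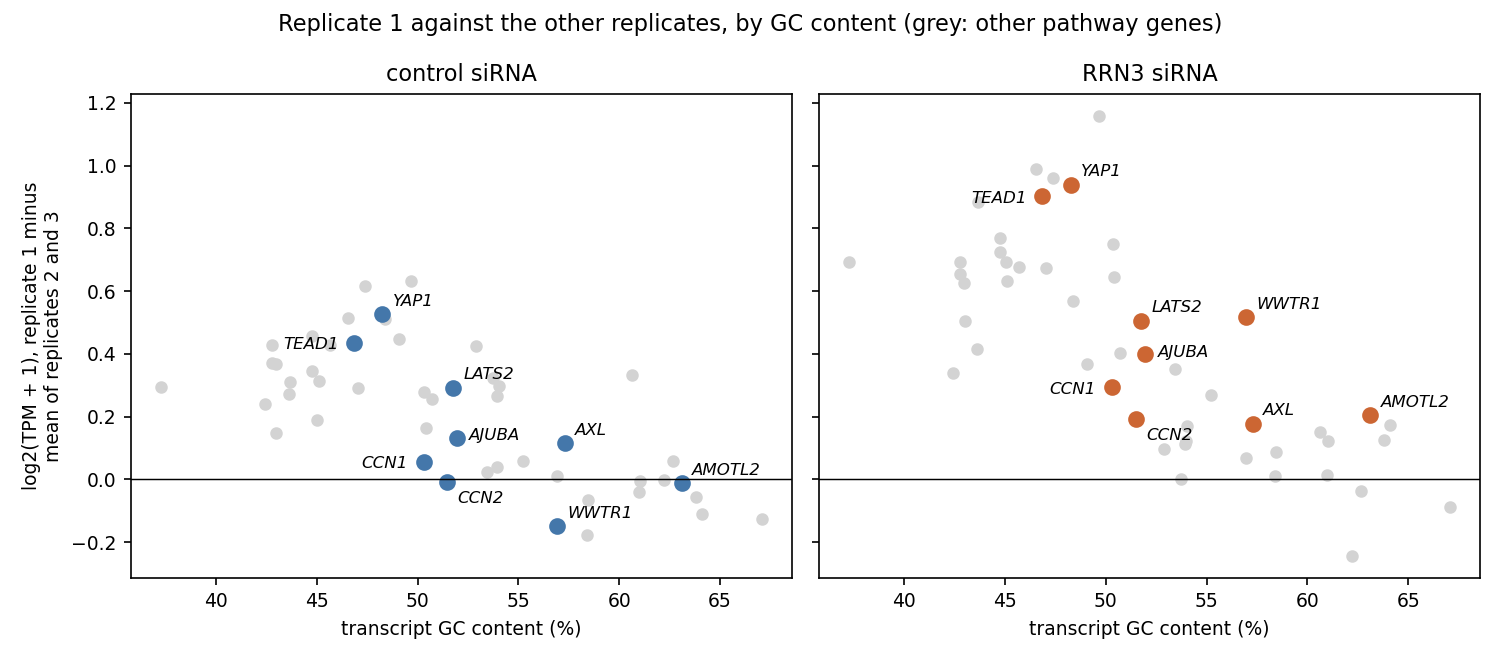
Difference in log2(TPM + 1) between replicate 1 and the mean of replicates 2 and 3 within control siRNA (left) and RRN3 siRNA (right), against mean transcript GC content in percent, for 49 tested pathway genes (9 members coloured and named, others grey). YAP1 and TEAD1 lie high on the vertical axis in both groups (0.53 and 0.44 in control, 0.94 and 0.90 in RRN3 siRNA). AXL and AMOTL2 stay between -0.01 and 0.20, while WWTR1, close to AXL in GC content, lies at -0.15 in control and 0.52 in RRN3 siRNA.

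By level in control libraries AMOTL2 was above all other members, and AJUBA, YAP1 and CCN1 followed with overlapping values. WWTR1 was below these, then AXL, and LATS2 and TEAD1 overlapped each other below AXL. CCN2 was lower than all of them, and ANKRD1 was near 0. In RRN3 siRNA libraries AMOTL2 was still above every other member, while AXL, from below WWTR1, had joined AJUBA, CCN1 and YAP1 in a band of overlapping values. The ranges of WWTR1 and LATS2 overlapped after RRN3 siRNA, as did those of LATS2, CCN2 and TEAD1.

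Within each library the ratio of paralogous genes does not depend on how the library was scaled, apart from the pseudocount. The ratios given are of TPM, while the differences and exact p-values are of log2 ratios of TPM + 1. For low genes such as LATS1 these differences are not the log2 differences of the ratios given. The pairs compared were 5, and with 3 against 3 libraries the exact two-sided permutation p cannot go below 0.1. Once adjusted over these pairs, each exact p of 0.1 became 0.125. YAP1 to WWTR1 was 2.38, 1.66 and 1.26 in control and 3.47, 2.7 and 2.53 in RRN3 siRNA libraries, so YAP1 gained on WWTR1 with no overlap (difference in log2 ratio 0.72, exact p = 0.1). LATS1 to LATS2 was 0.375, 0.378 and 0.407 in control and 0.259, 0.229 and 0.139 in RRN3 siRNA libraries (difference -0.70, exact p = 0.1). AMOTL1 to AMOTL2 went from 0.35, 0.241 and 0.251 to 0.157, 0.148 and 0.125 (difference -0.94, exact p = 0.1). In all 3 of these pairs the ratio in every RRN3 siRNA library was beyond the range of the controls. The share of all gene pairs for which this holds was not computed. Each pair was built around a member, and the members were chosen with earlier results of these data known, so these counts describe the chosen pairs. For YAP1 to WWTR1 the margin was narrow, 2.38 in control replicate 1 against 2.53 in RRN3 siRNA replicate 3. These ratios are not free of a library's GC trend, because the paired genes differ in GC content. It was 48.2% for YAP1 and 56.9% for WWTR1, 45% for LATS1 and 51.75% for LATS2, and 49.1% for AMOTL1 and 63.1% for AMOTL2. AMOTL1, the angiomotin relative of AMOTL2, was itself at 8.29 ± 1.76 and 8.62 ± 1.56 TPM (SD, n = 3). LATS1 was at 1.98 ± 0.278 and 1.69 ± 0.836 TPM, and neither passed the test (limma adjusted p = 0.863 and 0.601). The CCN1 to CCN2 difference was 0.29 on the log2(TPM + 1) scale (exact p = 0.1), which shrank to 0.11 with a pseudocount of 0.1. TEAD1 to TEAD4 overlapped between the groups (0.254, 0.15 and 0.178 against 0.439, 0.319 and 0.172, exact p = 0.2).

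**Figure D3:**
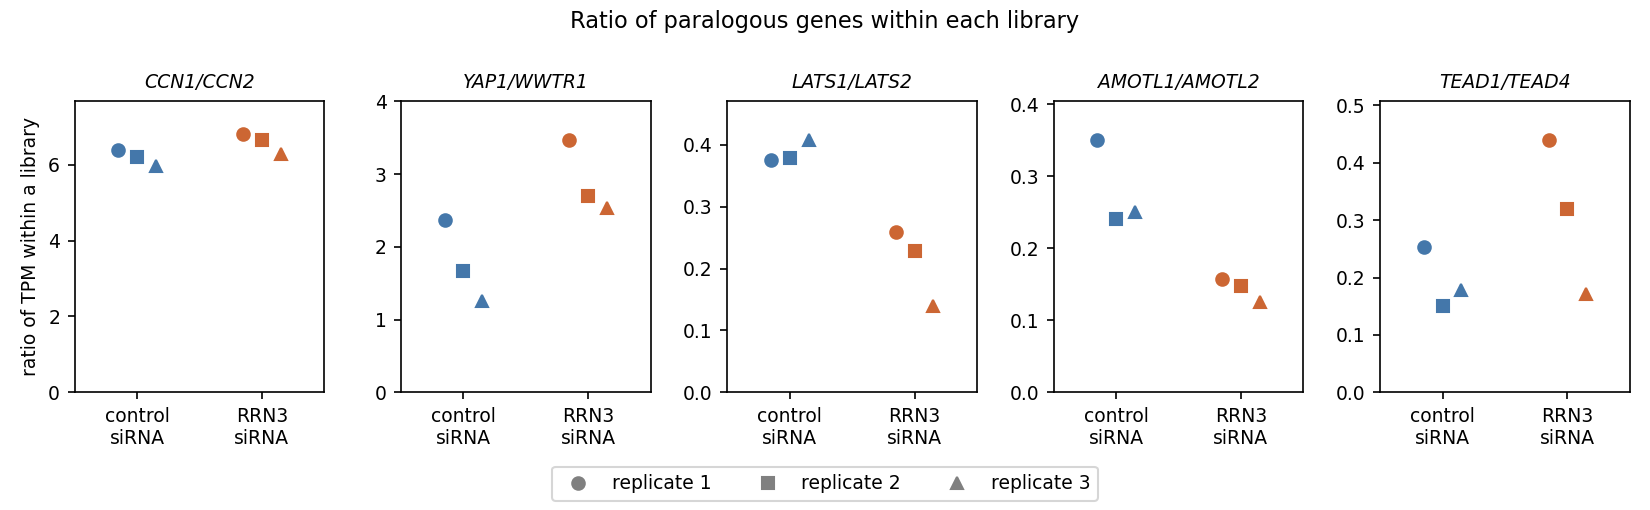
Ratio of TPM of 5 pairs of paralogous genes in each control siRNA (blue) and RRN3 siRNA (orange) library, with marker shape giving the replicate number and axes starting at 0. The groups are apart for YAP1/WWTR1, LATS1/LATS2 and AMOTL1/AMOTL2, overlap for TEAD1/TEAD4, and differ little for CCN1/CCN2.

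Like the members, the gene lists counted from here on were chosen with earlier results of these data known. Their shares therefore describe the chosen genes and are no independent test of the pathway. A wider list of 22 conserved YAP target genes, of which 6 are members, was counted next. Of the 17 tested, 10 rose (58.8%, against 11.2% of all tested genes), 0 fell (against 19%) and 7 did not pass, with a median log2 change of 0.90. Of the 12 tested genes of this list that are not members 6 rose, with a median of 0.60. NT5E, which encodes CD73, the surface enzyme that makes adenosine from AMP, was at 8.92, 6.81 and 7.18 TPM in control and 46.9, 31.8 and 28.2 TPM in RRN3 siRNA libraries. Its groups were far apart (log2 change 2.06, SE 0.20, limma adjusted p = 0.00029). F3, tissue factor, the initiator of blood coagulation, rose from 15.7 ± 3.25 to 66.9 ± 19.4 TPM (SD, n = 3; limma adjusted p = 0.000484). CRIM1, a transmembrane protein that binds bone morphogenetic proteins, rose from 4.18 ± 0.364 to 12.4 ± 3.83 TPM, and NUAK2, an AMPK-related kinase, from 2.97 ± 0.271 to 6.41 ± 0.403 TPM (limma adjusted p = 0.00242 and 0.00237). GADD45A, a stress-response gene also known as a p53 target and named after its values were seen, rose from 56.8 ± 6.63 to 83 ± 4.5 TPM (limma adjusted p = 0.00563). MYOF, ASAP1 and FJX1, named after their values were seen, had log2 changes of 0.40, 0.12 and 0.07 and did not pass. FOXF2 was listed at 0 in every library, and CCDC80, TGFB2 and RBMS3 were below 1 TPM.

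Of 16 Hippo core kinase and scaffold genes 15 were tested, of which 2 rose, 0 fell and 13 did not pass, with a median log2 change of 0.16. The share that rose, 13.3%, was close to the 11.2% of all tested genes, while 19% of all tested genes fell. The 2 that rose encode upstream activators of LATS kinases. WWC1, also called KIBRA, was at 41.4, 37.1 and 30.2 TPM in control and 88.8, 80.1 and 77.4 TPM in RRN3 siRNA libraries. These groups did not overlap (log2 change 1.17, SE 0.13, limma adjusted p = 0.000467). NF2, merlin, rose from 33.8 ± 2.67 to 50.4 ± 2.45 TPM (limma adjusted p = 0.00323).

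Among the 10 coactivator, TEAD and VGLL genes 7 were tested, of which 1 rose and 1 fell. Each is 14.3% of this list, close to the 11.2% of all tested genes that rose and the 19% that fell. VGLL4, which competes with YAP for TEAD proteins, was at 11.97, 9.58 and 9.02 TPM in control and 20.1, 18.6 and 17.5 TPM in RRN3 siRNA libraries. The rise had no overlap between groups (log2 change 0.83, SE 0.14, limma adjusted p = 0.00314). TEAD4 fell, from 24.4, 28.4 and 24.8 to 17.1, 14.3 and 15.8 TPM (log2 change -0.68, SE 0.11, limma adjusted p = 0.00337). TEAD4 was the most abundant TEAD gene in control libraries, and its share of the summed TEAD1 to TEAD4 TPM was 35.3, 37.9 and 37.4% in control and 27.2, 26.4 and 29.2% in RRN3 siRNA libraries. The summed TEAD level was 66.2 to 74.9 TPM in control and 54.1 to 62.9 TPM in RRN3 siRNA libraries, so the groups did not overlap. TEAD2 and TEAD3, named after their values were seen, had log2 changes of -0.27 and 0.04 and did not pass. VGLL1, VGLL2 and VGLL3 were at or near 0.

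Of 15 junction and LIM domain regulators 13 were tested, of which 5 rose (38.5%, against 11.2% of all tested genes), 0 fell (against 19%) and 8 did not pass, with a median log2 change of 0.24. Besides the members AMOTL2 and AJUBA, already counted above, these were PTPN14, SCRIB and WTIP. PTPN14, a phosphatase that binds YAP and is also on the conserved target list, rose from 2.74 ± 0.657 to 8.27 ± 2.98 TPM (limma adjusted p = 0.00655). SCRIB, a polarity scaffold, rose from 120 ± 8.6 to 167 ± 5.96 TPM, and WTIP, a LIM protein of the AJUBA family, from 4.78 ± 0.548 to 7.45 ± 0.831 TPM (limma adjusted p = 0.00327 and 0.0265). WTIP did not pass once low genes were kept in the test (adjusted p = 0.0526) or in fits lacking control replicate 1, control replicate 3, RRN3 siRNA replicate 2 or RRN3 siRNA replicate 3 (adjusted p = 0.0849, 0.0744, 0.0608 and 0.0859). With the core, cofactor and junction lists joined, 8 of 35 tested genes rose (22.9%, against 11.2% of all tested genes) and 1 fell (2.86%, against 19%). Without the members 6 of 29 rose (20.7%) and 1 fell (3.45%). With median-of-ratios scaling or quantile normalization 13 genes of the joined lists, members included, rose, while over the whole table rising genes went from 1367 to 2017 and 2199. Without RRN3 siRNA replicate 1, or without both libraries numbered 1, 4 genes of the joined lists fell, AMOT, PATJ and STK3 being added to TEAD4. Falling genes over the whole table went from 2312 to 2977 and 3003 under these settings.

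**Figure D4:**
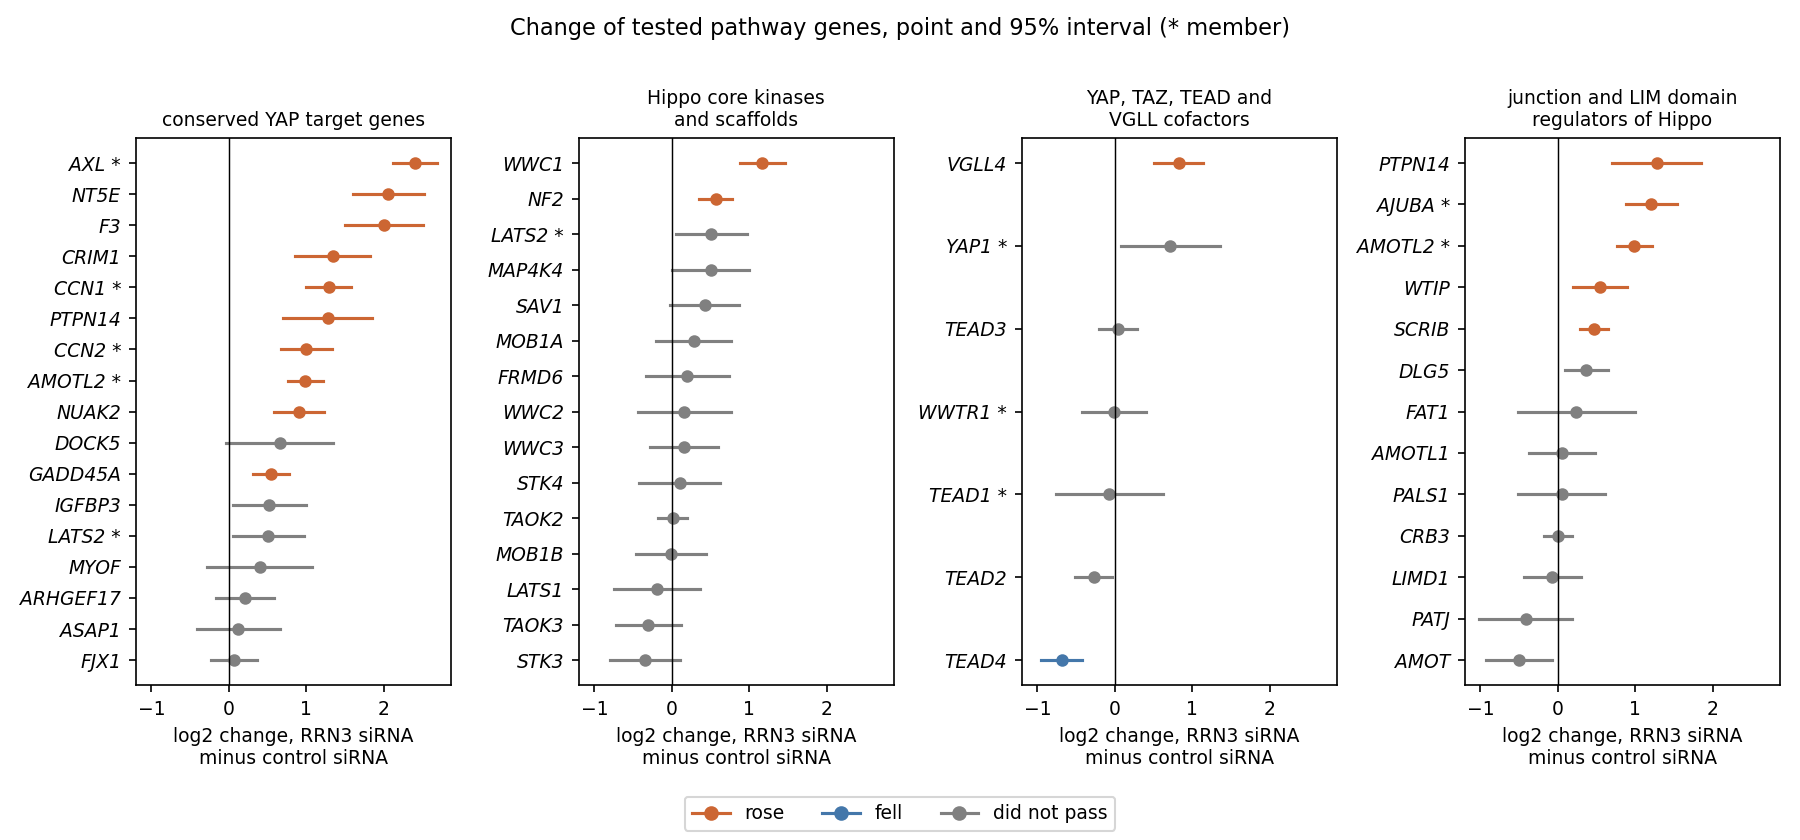
Difference in log2(TPM + 1), RRN3 siRNA minus control siRNA, for the tested genes of 4 lists, as point and 95% interval from the limma fit (orange rose, blue fell, grey did not pass; members carry an asterisk). All calls in the target list lie to the right of the zero line, from 0.54 for GADD45A to 2.40 for AXL. TEAD4 of the cofactor list, at -0.68, is the lone fall among the 4 lists.

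The profiles most like those of the 2 CCN genes over the 6 libraries were taken by Pearson correlation of log2(TPM + 1), a measure that in these data mostly reads the difference between the groups. For CCN1 they were MAPKAP1, a subunit of the mTOR complex that phosphorylates AKT (r = 0.9998), the cyclin gene CCNE1 (r = 0.9995) and the AP-1 gene JUN (r = 0.9993). JUN rose from 14 ± 1.5 to 35 ± 4.54 TPM (limma adjusted p = 0.000397). For CCN2 they were AMOTL2 (r = 0.9999), CASTOR2 (r = 0.999) and the ubiquitin ligase gene TRIM35 (r = 0.9986). AMOTL2 is itself a member, and 119 genes for CCN1 and 135 for CCN2 had a correlation over 0.99, so these names are the top of a long list.

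The calls of CCN1, CCN2, AXL, AMOTL2 and AJUBA were made under all alternatives in which each was tested, other than the test against a minimum log2 change of 1, which AXL alone passed. Their log2 changes stayed between 0.92 and 2.53. With a minimum mean of 5 TPM CCN2 was not tested.

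**Figure D5:**
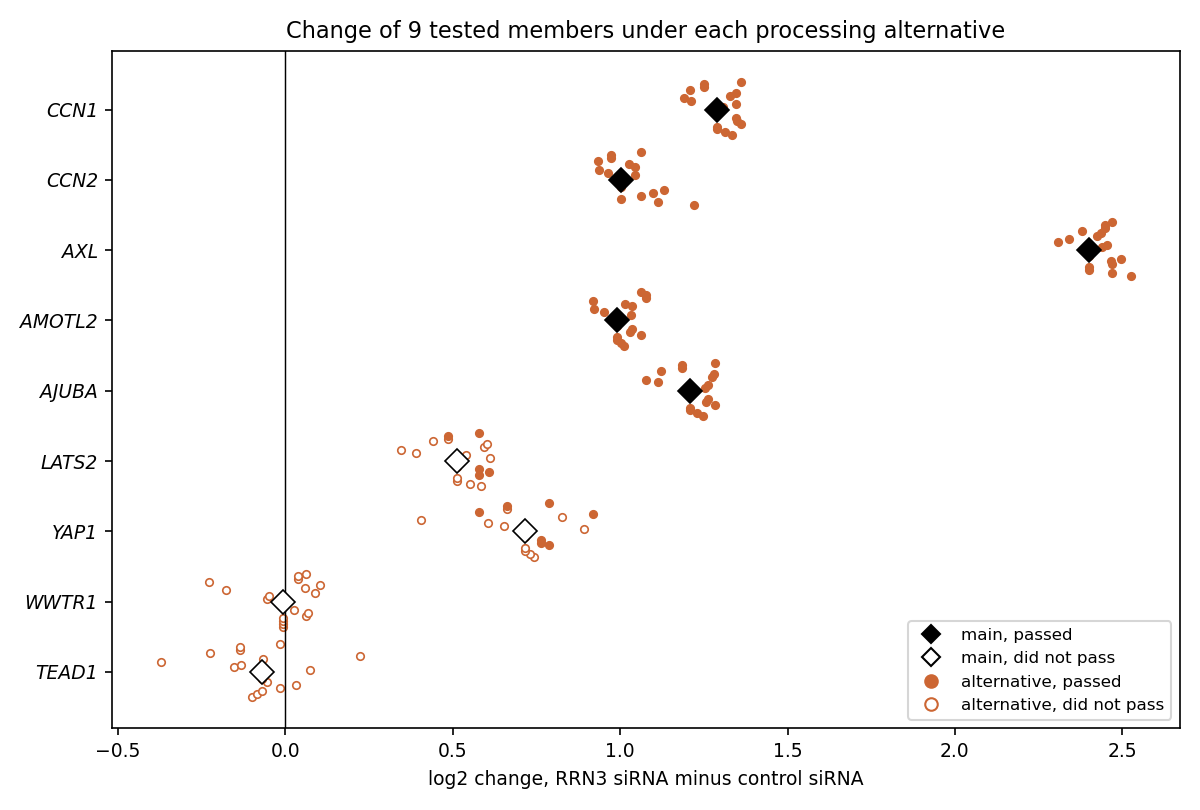
Log2 change of the 9 tested members in the main fit (diamonds) and under each alternative processing (circles, filled where adjusted p was below 0.05; the test against a minimum change is left out). The points of CCN1, CCN2, AXL, AMOTL2 and AJUBA are filled and lie between 0.92 and 2.53, those of LATS2 and YAP1 are mixed, and those of WWTR1 and TEAD1 lie on both sides of 0.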

How the data were processed

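The authors deposited 1 table of TPM values per gene symbol for 6 libraries; STAR, Salmon and the build GRCh38 appear in the submitters' processing notes with no role (versions, annotation and filters: not given in the sources used here). Per the labels' protocols, the libraries were made from poly(A) RNA with Ribo-Zero depletion and random hexamer priming. TPM keeps no depth, so no counting interval was computed. Groups and replicate numbers came from the sample titles, and the design text calls the replicates biological.

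Tested genes had a mean of 1 TPM or more over all libraries. Values of log2(TPM + 1) were fitted in limma 3.58.1 (R 4.3.3), with group alone in the model, an intensity trend and Benjamini-Hochberg adjustment over all tested genes at 0.05. The fit was also run on simulated data with noise drawn independently for each gene. Those data lack the GC trend of replicate 1, so they do not check the calls against it. Paralog ratios were tested by exact two-sided permutation. Transcript GC content and gene coordinates came from GENCODE 29 (GC for 99.9% of tested genes), and promoter windows from RefSeq. Python 3.11.15, pandas 2.3.3 and matplotlib 3.10.9 were used for annotation and plots.

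The members and lists, written from general knowledge of the pathway, were chosen with earlier results of these data known. All members were named; of each other list up to 4 genes with the smallest adjusted p among those that passed were named, then the 3 genes most like CCN1 and CCN2 and both genes of each paralog pair. Alternatives were other pseudocounts, filters, scalings, variance moderation, a block on replicate number, a test against a minimum change, and leaving out libraries; removal of GC trends by loess (span 0.3), alone or with the block, and median-of-ratios scaling with the block were added after seeing the data. One further list of pathway genes is not reported here.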

Additional observations from a re-analysis of the deposited data

How the results depend on the processing

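With 5 members rising and 0 falling, the counts of members stayed within 1.5 times of these under every alternative other than the test against a minimum log2 change of 1, under which 1 member rose. That test, which asks for a larger change, also left 53 of all genes rising and 82 falling, 2 conserved YAP targets and 2 SRF-MRTF targets rising, 0 SRF-MRTF targets falling, and 0 genes of the joined Hippo lists rising or falling. Genes rising over the whole table numbered 2199 after quantile normalization. Leaving out 1 library gave 785 (without RRN3 siRNA replicate 2) to 1268 rising genes, with 893 without control replicate 3, and 1445 (without RRN3 siRNA replicate 2) to 2977 falling genes. In the joined Hippo lists 13 rose with each of median-of-ratios scaling and quantile normalization. The number falling there was 2 after quantile normalization, 2 with the GC trend removed, 4 without both libraries numbered 1, and 1 to 4 when 1 library was left out. Either of those scalings gave 8 rising SRF-MRTF targets.

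The replicate numbers were not shown to pair the cultures: deviations of same-numbered libraries correlated at 0.419, 0.0954 and 0.159 for numbers 1, 2 and 3, and not every library correlated best with its own number. With the replicate block 2295 genes rose and 3251 fell over the whole table, 13 of the joined Hippo lists rose and 3 fell, and 8 SRF-MRTF targets rose. With the block after GC removal these were 2430, 3412, 13, 4 and 10, and with the block after median-of-ratios scaling 2909, 2821, 15, 2 and 9. The block also brought YAP1 and LATS2 past the threshold (adjusted p = 0.000712 and 0.0108).

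The sign of values near 0 changed with the setting. For WWTR1 the log2 change was 0.061 with median-of-ratios scaling (with or without the block), 0.066 with quantile normalization, 0.026 on the rescaled TPM, 0.038 with the GC trend removed (with or without the block), and -0.178 to 0.103 when 1 library was left out. For TEAD1 it was 0.032 with quantile normalization and ranged from -0.372 to 0.224 when 1 library was left out. Over those fits LATS1 ranged from -0.421 to 0.026 and AMOTL1 from -0.069 to 0.203. The cause was not tested. Depth is unknown, so the precision of low genes such as ANKRD1 cannot be given.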

Other observations

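Genes controlled by serum response factor and its actin-sensing cofactors (SRF-MRTF) share several targets with YAP and TEAD, CCN1 and CCN2 among them. Of 16 listed SRF-MRTF targets 15 were in the table and 13 were tested, of which 5 rose (38.5%, against 11.2% of all tested genes), 1 fell (7.69%, against 19%) and 7 did not pass, with a median log2 change of 0.47 against -0.05 over all tested genes. ACTA2, smooth muscle actin, was at 4.76, 4.6 and 3.91 TPM in control and 31.0, 34.4 and 30.9 TPM in RRN3 siRNA libraries, with no overlap (log2 change 2.61, SE 0.12, limma adjusted p = 1.8e-05). FHL2, a LIM domain cofactor, rose from 51.8 ± 3.32 to 182 ± 4.59 TPM (SD, n = 3; limma adjusted p = 1.53e-05). MYL9, a myosin light chain, rose from 39 ± 1.45 to 85.1 ± 4.23 TPM and FLNA, the actin cross-linker filamin A, from 180.2 ± 24.6 to 349 ± 15.6 TPM (limma adjusted p = 8.07e-05 and 0.000465). TAGLN, an actin-binding protein, rose from 3.54 ± 0.23 to 7.44 ± 0.883 TPM, and FHL1, a LIM domain relative of FHL2, fell from 7.34 ± 0.979 to 3.72 ± 0.424 TPM; both were named after their values were seen (limma adjusted p = 0.00289 and 0.00575). SRF itself, also named after its values were seen, was at 28.8 ± 2.47 and 28.6 ± 1.63 TPM and did not pass (limma adjusted p = 0.972). Of 9 listed colon epithelial markers 8 were in the table and 6 were tested. Of these 3, all keratin genes, rose (50%, against 11.2% of all tested genes) and 0 fell (against 19%). KRT8, KRT18 and KRT19 rose with log2 changes of 1.20, 1.19 and 1.01. EPCAM, CDH1 and CDX2 had log2 changes of 0.10, 0.32 and -0.30 and did not pass, CDX2 being lower in every RRN3 siRNA library than in any control. KRT20 and VIL1 were below the minimum for testing, with means of 0.609 and 0.22 TPM in control and 0.33 and 0.154 TPM in RRN3 siRNA libraries.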
